A study of Mus musculus with 12 samples.

Results

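The genes described here are 43 protein-coding mouse genes that carry a clone-derived name ending in Rik and that were barely detected in the testis at postnatal day (PND) 7 but were present from PND 14. They were selected on their levels in CPM, the count of a gene per 1000000 counts of the mouse. A gene was kept when it lay under 1 CPM in both PND 7 mice and at 10 CPM or more in both PND 14 and both PND 17 mice. The 43 genes are part of 1445 protein-coding Rik genes, of 22380 protein-coding genes and of 37675 genes listed in all. One symbol, 4932414N04Rik, stands for 2 gene records with the same exons for most of their length, so the 43 genes carry 42 symbols. Another 133 protein-coding genes with ordinary names passed the same thresholds and are given beside the Rik genes where the comparison is useful.

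The testes came from the inbred strain C57BL/6NHsd, from 2 mice at each of 5 ages, which were PND 7, 14, 17, 21 and PND 28. No treatment or mutant allele was named for any group. Their RNA was freed of ribosomal RNA and sequenced on a SOLiD 4 instrument, which reads short fragments in color space. The reads of each PND 7 mouse were split over 2 barcodes, which were summed here. Whole testis RNA mixes germ cells with Sertoli, Leydig, myoid and blood cells, so the number of cells of a type and the amount of RNA per cell cannot be told apart in any of the values below.

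Spermatogenesis is the process by which spermatogonia, the dividing stem and progenitor cells of the testis, enter meiosis as spermatocytes and then mature as haploid spermatids. In the young mouse the first wave of germ cells passes through these steps together, so that each age adds a more advanced cell type to the tubules. Spermatocytes in the pachytene stage already transcribe many genes whose products act later in the acrosome and the sperm tail. Rik names were given to full-length cDNA clones of the RIKEN collection whose product had no known function, and many came from testis libraries.

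The word uncharacterized fitted only some of the 43 genes. In the mouse RefSeq gene table, 26 genes have since been given another symbol, 16 records still carry a Rik symbol and 1, C030017K20Rik, had no entry. Several of the newer names belong to the sperm tail and other cilia. They are Cfap206 (1700003M02Rik), Cfap46 (E030019B06Rik) and Cfap54 (4930485B16Rik), which belong to the axoneme of motile cilia and flagella, and Pifo (1700027A23Rik), which acts at the primary cilium. Catsperz (1700019N12Rik) is an accessory subunit of CatSper, the calcium channel of the sperm tail, and Stpg4 (1700011E24Rik) has sperm-tail PG-rich repeats. Meikin (4930404A10Rik) is a kinetochore protein of the first meiotic division that helps to protect cohesion at the centromere. Mgat4d (4933434I20Rik) is a Golgi protein that inhibits an enzyme of N-glycan branching, and Ube2d2b (1700013N18Rik) belongs to the ubiquitin-conjugating enzymes. Spdye4b (4933411G11Rik) belongs to the Speedy family of cell cycle regulators, Clec2m (4922502D21Rik) to the C-type lectins, Tmbim7 (4930511M11Rik) to a family of membrane proteins related to BAX inhibitor 1 and Ms4a20 (1700017D01Rik) to the MS4A membrane proteins.

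The 43 genes were spread over 17 chromosomes, with 7 on chromosome 6 and 6 on chromosome 2. None lay on the X chromosome, which held 4.16% of all protein-coding genes and 0.752% of the 133 other genes that passed. The longest coding sequence of a gene had a median of 780 bases, against 1419 for the 133 other genes and 1131 for all protein-coding genes. It ranged from 261 bases in 1700020N01Rik to 9318 bases in Cfap54, the gene with the largest summed exon length of the group at 14460 bases. Single-exon genes made up 9.30% of the group, close to the 9.77% of the 133 other genes and beside 13.1% of protein-coding genes. These 4 were Ube2d2b, 1700123L14Rik, 4933415F23Rik (Ppp1r14bl) and 4930544G11Rik.

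At PND 7 the genes were close to silent, which the selection required. Of the 43 genes, 23 had 0 counts in both PND 7 mice, 4 had a single count and 16 had between 2 and 8 counts over both mice. A count of 0 over both PND 7 mice allows a level of up to 0.180 CPM, a limit that covers counting error only. The 23 genes without a count included the abundant Mroh4 (1700016M24Rik) and 1700006A11Rik, together with Ube2d2b, Stpg4, Meikin, Mgat4d, Tmbim7, Ppp1r14bl, Cfap46, A26c3 (4930430A15Rik), Fam227b (4930525F21Rik), Ccdc175 (4930403N07Rik) and Ccdc192 (1700011I03Rik). The rest of them were 1700003E16Rik, 1700010B08Rik, 1700012B09Rik, 1700029F12Rik, 1700074P13Rik, 1700123L14Rik, 4933414I15Rik, 4933440M02Rik and both records of 4932414N04Rik. The few counts were not shared evenly between the mice: 74 counts over the 43 genes were in mouse 1 and 9 in mouse 2. Both barcodes of mouse 1 held them, with 47 and 27 counts, and the barcodes of mouse 2 held 3 and 6. At PND 7, summed over the 43 genes, mouse 1 stood at 7.66 CPM and mouse 2 at 1.28 CPM.

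The selection limits cut through a continuous range of genes. Just inside the PND 7 limit were Spdye4b at 0.853 CPM and 1700020N01Rik and Nt5el (4933425L06Rik) at 0.828 CPM each, and just outside were 4922505G16Rik at 1.04 CPM, 4930529M08Rik at 1.24 CPM and 1700034F02Rik at 1.35 CPM. At the lower limit for PND 14 and 17, C030017K20Rik with 10.3 CPM, Cfap46 with 10.3 CPM and Ccdc175 with 10.8 CPM were kept. The Rik genes 1700039E15Rik and 1700009P17Rik, both at 9.26 CPM in their lowest mouse, and 1700001J11Rik at 9.11 CPM were left out.

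**Figure D1:**
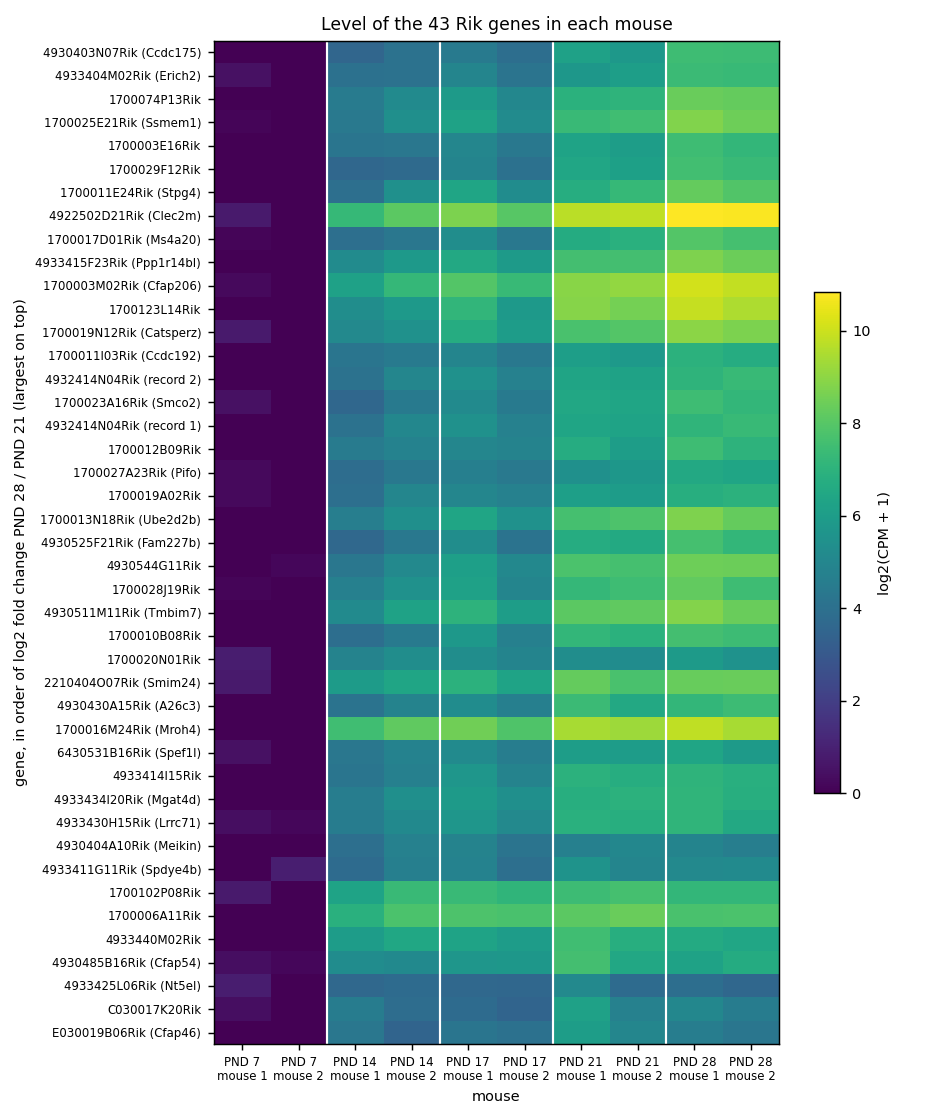
Level of each of the 43 Rik genes as log2(CPM + 1) (color) in each of the 10 mice (columns), with genes (rows) in order of their log2 fold change between PND 21 and PND 28. The PND 7 columns are dark because the selection required under 1 CPM there. From PND 14 the rows brighten to the right in most genes, whereas the mean CPM of the lowest 10 rows is no higher at PND 28 than at PND 21.

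Ranked by RPKM, which scales reads by exon length and library size and so allows genes of different length to be compared, the mean over PND 14 and 17 ran from 3.13 RPKM in Cfap54 to 179 RPKM in Clec2m, with a median of 19.7 RPKM. The 6 highest genes were Clec2m, 1700102P08Rik, 1700006A11Rik, Smim24 (2210404O07Rik), Catsperz and Mroh4. Clec2m, on mm9 chromosome 6 at 129272183 to 129281814 on the minus strand, is the most abundant of the group and is annotated with 5 exons. Its level was 0.725 and 0 CPM in PND 7 mice 1 and 2, 153 and 275 CPM at PND 14, 410.5 and 261 CPM at PND 17, 852 and 891 CPM at PND 21 and 1835 and 1743 CPM at PND 28. The mice of PND 14 and 17 overlapped, and each later age lay above all earlier mice. At PND 28 this single gene held 15.7% of the summed CPM of the 43 genes.

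1700102P08Rik and 1700006A11Rik followed another course. 1700102P08Rik (chromosome 9, 108295165 to 108300094, plus strand) measured 0.725 and 0 CPM in the PND 7 mice, 76.2 and 163 CPM at PND 14, 161 and 137 CPM at PND 17, 171 and 200.5 CPM at PND 21 and 145 and 143 CPM at PND 28. 1700006A11Rik (chromosome 3, 124103908 to 124128957, minus strand) measured 0 CPM in both PND 7 mice, 117 and 216 CPM at PND 14, 227 and 209 CPM at PND 17, 276 and 333 CPM at PND 21 and 208 and 218 CPM at PND 28. Both genes had their highest mean at PND 21. The PND 28 mice of both genes lay below the PND 21 mice and within the range of the PND 14 and 17 mice.

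Smim24, named as a small integral membrane protein (chromosome 10, 80855796 to 80858137, plus strand), measured 0.725 and 0 CPM in the PND 7 mice, 61.3 and 82.6 CPM at PND 14, 125 and 78.1 CPM at PND 17, 309 and 212 CPM at PND 21 and 319 and 331 CPM at PND 28. Catsperz (chromosome 19, 6996916 to 6999870, minus strand) measured 0.725 and 0 CPM in the PND 7 mice, 33.9 and 43.5 CPM at PND 14, 103 and 63.1 CPM at PND 17, 210.3 and 247 CPM at PND 21 and 492 and 410.4 CPM at PND 28. In PND 21 mouse 1 Smim24 was already close to its PND 28 level, whereas both PND 28 mice had more Catsperz than both PND 21 mice. Mroh4, a gene with HEAT repeats (chromosome 15, 74436459 to 74466691, minus strand), measured 0 CPM in both PND 7 mice, 181 and 289.8 CPM at PND 14, 364 and 231 CPM at PND 17, 679 and 607 CPM at PND 21 and 883 and 689 CPM at PND 28. The Mroh4 mice of PND 14 and 17 overlapped and each later age lay above them.

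**Figure D2:**
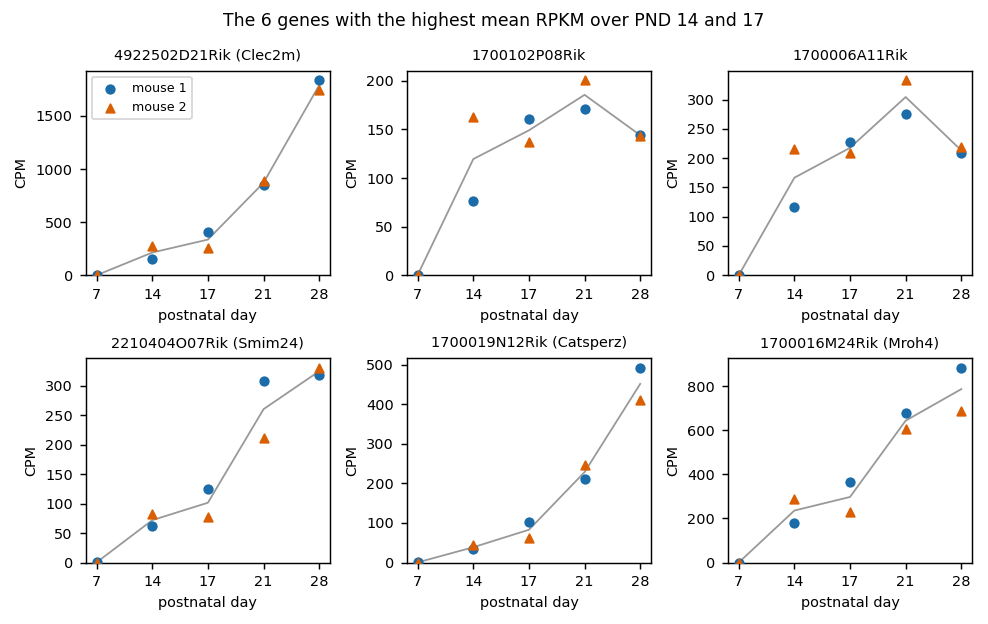
Level in CPM (vertical axes, each from 0) by postnatal day of the 6 Rik genes with the highest mean RPKM over PND 14 and 17, with a point for each mouse and a line through the mean of the 2 mice. Clec2m and Catsperz climb to PND 28, where Clec2m stands at 1835 and 1743 CPM, whereas 1700102P08Rik and 1700006A11Rik have their highest mean at PND 21.

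Promoters are shown for the 3 highest of these genes that have one in the RefSeq promoter table (build GRCm38.p6, which differs from the mm9 build of the counts). Each is given from 250 bases before to 10 bases after the annotated start, on the coding strand. Clec2m lies at chr6:129331772-129332031 (minus strand), 1700102P08Rik at chr9:108392584-108392843 (plus strand) and Smim24 at chr10:81392814-81393073 (plus strand). Capitals mark the letters TAACNG or AACNGTC on either strand, which are short forms of the MYB site. MYB proteins were looked for because MYBL1 (A-MYB) is a transcription factor of pachytene spermatocytes.
Clec2m: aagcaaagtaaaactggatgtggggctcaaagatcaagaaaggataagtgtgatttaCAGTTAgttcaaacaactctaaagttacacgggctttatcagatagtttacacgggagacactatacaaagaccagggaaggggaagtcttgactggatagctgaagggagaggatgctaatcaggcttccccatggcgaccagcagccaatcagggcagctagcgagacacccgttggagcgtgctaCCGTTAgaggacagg
1700102P08Rik: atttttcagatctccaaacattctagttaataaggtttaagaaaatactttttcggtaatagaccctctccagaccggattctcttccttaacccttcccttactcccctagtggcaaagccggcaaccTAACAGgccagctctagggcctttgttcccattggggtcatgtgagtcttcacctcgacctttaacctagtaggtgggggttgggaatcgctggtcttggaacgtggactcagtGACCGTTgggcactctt
Smim24: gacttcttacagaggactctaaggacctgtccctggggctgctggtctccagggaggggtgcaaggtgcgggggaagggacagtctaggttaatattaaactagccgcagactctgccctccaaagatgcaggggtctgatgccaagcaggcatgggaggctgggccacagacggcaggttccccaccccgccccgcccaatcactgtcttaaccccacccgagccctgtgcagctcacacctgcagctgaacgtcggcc
Clec2m held TAACNG at 2 places, 1 of them at the start, 1700102P08Rik held TAACNG once and AACNGTC once, and Smim24 held neither.

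Over the group, 30 of the 42 symbols had a promoter in the table, with 33 promoters in all because a few genes have more than 1 start. The letters TAACNG, on either strand of the 300 bases from 250 before to 50 after the start, were present in 33.3% of these 33 promoters, 40.4% of the 114 promoters found for the other genes that passed and 21.0% of 21263 promoters of protein-coding genes. AACNGTC, which overlaps TAACNG where a T precedes it, was present in 15.2%, 16.7% and 7.33% in the same order. Either of these was present in 14 of the 33, which is 42.4%, against 57 of the 114 and 25.8% of all. In its share of MYB letters the group thus lay between all promoters and the other genes that passed. No test was made of these shares.

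GTTGCCA, the letters of a site for RFX factors, which act on genes of cilia and of spermatids, was present in 21.2% of the 33 promoters, 13.2% of the promoters of the other genes that passed and 4.18% of all promoters. These were promoters of 5 genes. A26c3 has 2 annotated starts that differ by a few bases and share the site, and Ssmem1 (1700025E21Rik) has 2 separate starts with a site each. The sites are shown with 10 bases on either side on the coding strand, with GTTGCCA or its reverse complement TGGCAAC in capitals, because they lay close to the start in all of these genes except Fam227b.
A26c3, chr2:111229596-111229622: cagcgtcgctTGGCAACctagattcta
Pifo, chr3:106001494-106001520: tccgttccctTGGCAACgtagtacaca
Ccdc175, chr12:72185020-72185046: gtcgttgcccTGGCAACagtgttcctc
Ssmem1, upstream start, chr6:30509845-30509871: agccgcgatcGTTGCCAggggaacgcc
Ssmem1, downstream start, chr6:30512256-30512282: gtcataattgGTTGCCAgggaagttgt
Fam227b, chr2:126152103-126152129: gggcctggcgGTTGCCAgggccacggg
The first base of the capitals lay 9 or 12 bases before the 2 starts of A26c3, 13 before that of Pifo, 7 before that of Ccdc175, 20 before the downstream start of Ssmem1 and 115 before that of Fam227b. At the upstream start of Ssmem1 the site began at base 7 of the transcript. Of the other letters searched, TGACGT (the core of a CREM site) was present in 3.03% of the 33 promoters and in 8.49% of all promoters, CNCCTCAG (a site described for STRA8 and MEIOSIN) in 9.09% and 8.52%, and TATAAA on the coding strand in 3.03% and 8.26%. CpG dinucleotides had a median of 9 in the 300 bases against 10 for the other genes that passed and 13 for all promoters.

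The mean was higher at PND 17 than at PND 14 in all genes except C030017K20Rik, 4933440M02Rik and Nt5el. The size of this change was close to the difference between the mice of an age. The ratio of the PND 17 mean to the PND 14 mean had a median of 1.49 over the 43 genes and 1.45 over the 133 other genes that passed. Both PND 17 mice lay above both PND 14 mice in 15 of the 43 genes. This pattern was shown by 38 of the 133 other genes that passed and 10.8% of the 16860 genes tested. The reverse was seen in 1 of the 43 genes, C030017K20Rik, in 1 of the 133 and in 20.8% of all genes tested. In the remaining 27 of the 43 genes the mice of the 2 ages overlapped. These 4 mice chose the genes, so the counts are a description and were not tested.

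At PND 14 and at PND 17 the mice of an age differed in the same direction through nearly the whole group. At PND 14, mouse 2 lay above mouse 1 in 40 of 43 genes, with a median ratio of 1.54, whereas the same ratio was 0.922 over 9482 protein-coding genes with at least 10 CPM. At PND 17, mouse 1 lay above mouse 2 in 42 of 43 genes, with a median ratio of 1.58 against 1.00 over 9181 protein-coding genes. Ratios for the 133 other genes that passed were 1.47 and 1.70. At PND 28, mouse 1 lay above mouse 2 in 35 genes and below it in 8. The steepest cases were Stpg4, at 14.6 CPM in PND 14 mouse 1 and 42.0 CPM in mouse 2, and 1700123L14Rik, at 139 CPM in PND 17 mouse 1 and 56.1 CPM in mouse 2. The only gene with more in PND 17 mouse 2 was Cfap54, at 50.7 and 53.1 CPM.

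Lists of cell type markers did not all move with these differences. The 17 spermatocyte markers found summed to 4212 and 5975 CPM in PND 14 mice 1 and 2. In PND 17 mice 1 and 2 they summed to 6609 and 5217 CPM, so the sums went in the same direction as the Rik genes. Single markers differed: the testis lactate dehydrogenase Ldhc measured 1512 and 927 CPM in the PND 17 mice. Sycp3 of the synaptonemal complex was level there at 381 and 380 CPM. Dmc1 and Ccnb1ip1 were slightly lower in PND 17 mouse 1, and Pgk2 was lower in PND 14 mouse 2. All 17 had a count, and at PND 7 they summed to 508 and 443 CPM. The 10 Sertoli cell markers found went the other way, with 2528 and 1367 CPM in the PND 14 mice and 1391 and 1833 CPM in the PND 17 mice. Spermatogonia markers were nearly level, at 470 and 464 CPM and then 444 and 454 CPM. Leydig cell markers went weakly with the Rik genes, at 256 and 286.5 CPM and then 310 and 292 CPM. Red blood cell markers were higher in mouse 2 at both ages, at 27.3 and 80.3 CPM and then 19.4 and 44.3 CPM. The part of these cell types in the differences between mice was not tested.

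**Figure D3:**
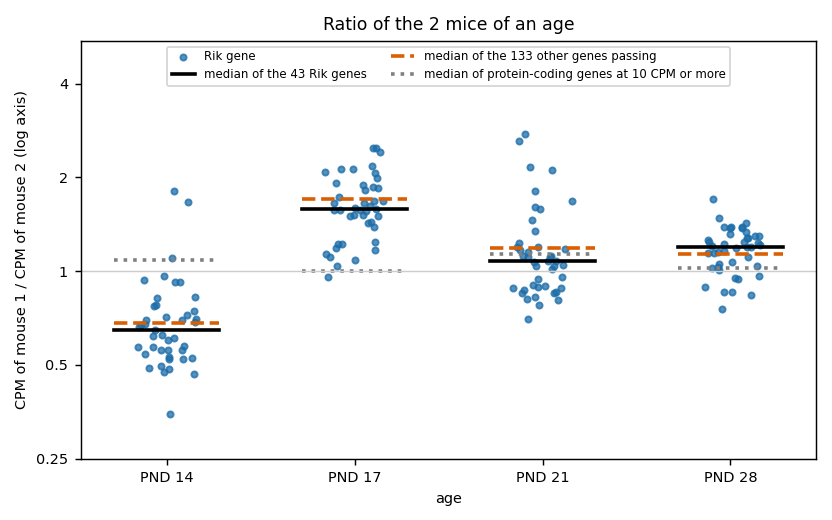
Ratio of the CPM of mouse 1 to that of mouse 2 (vertical log axis) for each of the 43 Rik genes at PND 14, 17, 21 and 28, with the medians of the 43 genes (solid), of the 133 other genes that passed (dashed) and of protein-coding genes with at least 10 CPM (dotted). Nearly all points lie below 1 at PND 14 and above 1 at PND 17, and the spread at PND 21 reaches 2.76.

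PND 14 mouse 1 stood apart in another way. The 19 spermatid markers, among them the transition protein Tnp1, the protamine Prm1 and the tail protein Akap4, summed to 436 CPM in that mouse against 26.9 CPM in PND 14 mouse 2 and 28.7 and 30.8 CPM in the PND 17 mice. At PND 28 they summed to 8751 and 10592 CPM. Spermatid markers in PND 14 mouse 1 were thus at 4.51% of their PND 28 mean and in PND 14 mouse 2 at 0.278%, where Prm3 had 0 counts and the other spermatid markers were at 5.72 CPM or less. The selection required 10 CPM in both of these mice, so the presence of the Rik genes in both was fixed in advance. Their median share of the PND 28 mean was 11.0% in PND 14 mouse 1 and 18.3% in PND 14 mouse 2. The part of a spermatid source in these levels was not tested. Leaving PND 14 mouse 1 out of the selection added 3 genes to the 43. In PND 17 mouse 1 the epididymal gene Crisp1 reached 179 CPM and in PND 7 mouse 2 it reached 66.2 CPM, against at most 1.26 CPM in the other mice. Lcn5, Lcn8, Defb20 and Adam28, the other epididymal genes listed, stood at 4.35, 0, 0.369 and 0 CPM in PND 17 mouse 1. In PND 7 mouse 2 they stood at 0, 0, 0 and 0.142 CPM. The source of the Crisp1 counts was not tested. The total counts of the 10 mice lay between 3994026 and 13559548 with a median of 7103531, and PND 17 mice 1 and 2 held the highest and the lowest.

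**Figure D4:**
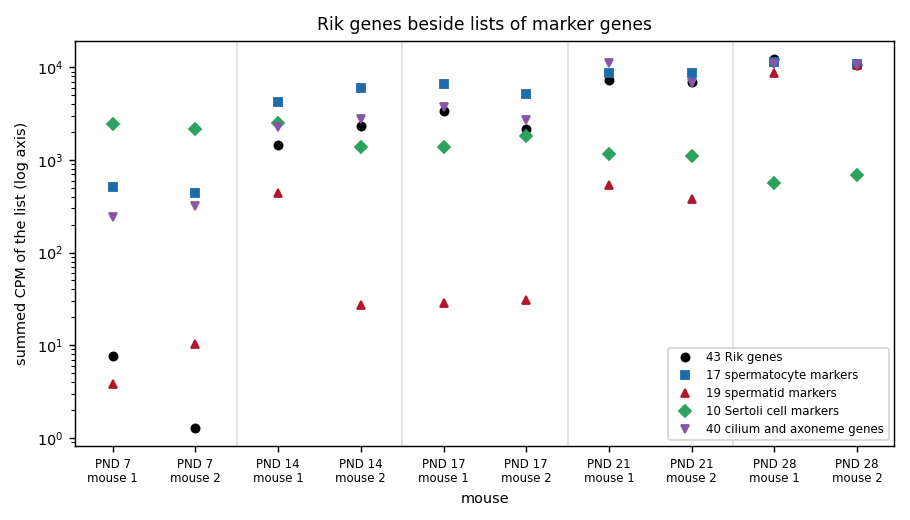
Summed CPM (vertical log axis) in each of the 10 mice of the 43 Rik genes and of 4 gene lists. The Rik genes climb from 1445 and 2346 CPM in the PND 14 mice to 12282 and 10524 CPM in the PND 28 mice, and the spermatid markers stand at 436 CPM in PND 14 mouse 1 but between 26.9 and 30.8 CPM in the other mice of PND 14 and 17.

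From PND 17 to PND 21 nearly every gene was higher. The PND 21 to PND 17 ratio had a median of 2.70 and ran from 1.12 in 1700020N01Rik to 4.40 in 1700123L14Rik. Both PND 21 mice lay above both PND 17 mice in 41 genes, beside 28.8% of all genes tested. The exceptions were Meikin, at 28.2 and 17.0 CPM in the PND 17 mice and 25.6 and 31.8 CPM in the PND 21 mice, and 1700020N01Rik, at 39.2 and 28.3 CPM and 38.6 and 37.3 CPM. The PND 17 mice took part in the choice of the genes, so this comparison was not tested either. The 133 other genes that passed had a median ratio of 2.98.

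At PND 21 a few genes differed strongly between the mice. C030017K20Rik stood at 72.9 CPM in mouse 1 and 26.4 CPM in mouse 2, Nt5el at 33.4 and 12.7 CPM, Cfap54 at 192 and 88.8 CPM and Cfap46 at 65.0 and 30.7 CPM. All 4 were higher in mouse 1. The 40 genes of the cilium and axoneme list also summed to more in mouse 1, with 11099.5 CPM against 6869.9 CPM, whereas the spermatocyte markers summed to 8789 and 8769 CPM. The largest part of the cilium sum was the long dynein gene Dnahc8, at 3471 and 1659 CPM. Within the group, other genes of the sperm tail and cilia were higher in mouse 2. These were Cfap206 at 479 and 543 CPM, Catsperz at 210 and 247 CPM, Stpg4 at 107 and 152 CPM and Pifo at 43.1 and 53.0 CPM. Across genes of these same 2 libraries, exon length and the ratio of mouse 1 to mouse 2 had a Spearman's rho of 0.36 over 9074 protein-coding genes with at least 10 CPM, 0.48 over the 133 other genes that passed and 0.27 over the 43 Rik genes. The summed exon length was 14460 bases in Cfap54, 3930 in C030017K20Rik, 2157 in Nt5el and 1518 in Cfap46, against a group median of 1807. At PND 14, 17 and 28 rho was 0.36, -0.30 and -0.27 over protein-coding genes with at least 10 CPM. Over the 43 Rik genes it was 0.0045, -0.12 and -0.13. The part of length in the differences at PND 21 was not tested. At PND 21 the median ratio of mouse 1 to mouse 2 over the 43 genes was 1.08, with 27 genes higher in mouse 1 and 16 in mouse 2. C030017K20Rik, Cfap46 and Cfap54 were also the only members with more in mouse 1 at PND 14, where C030017K20Rik measured 22.6 and 13.5 CPM.

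The comparison of PND 28 with PND 21 asked how genes that were already detected at PND 14 behaved between the ages of round and of elongating spermatids, and it is the only one between consecutive ages in which neither age took part in the choice of the genes. Of the 43 genes, 9 were called higher and none lower. The 9 are Ccdc175, a coiled-coil protein, Erich2 (4933404M02Rik), a protein rich in glutamate, 1700074P13Rik, 1700003E16Rik, 1700029F12Rik, Ms4a20, Ppp1r14bl, the coiled-coil gene Ccdc192 and 1700012B09Rik. They rose between 2.16-fold and 3.24-fold. The median log2 fold change of the 43 genes was 1.02, against 0.03 over all 16860 genes tested, 0.77 over the 133 other genes that passed and 0.42 over the 1004 protein-coding Rik genes that were tested but had not passed the selection.

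These calls were made with the quasi-likelihood test of edgeR on the counts of all 10 mice, with calls requiring a 2-fold change or more and a p, adjusted by Benjamini and Hochberg's method, below 0.05. By this rule 7.37% of all genes tested were higher at PND 28 and 0.297% were lower. The 9 of 43 called higher make 20.9% of the Rik genes, beside 10.5% of the 133 other genes that passed and 20.2% of the 1004 other Rik genes tested. The share in the group was therefore close to that of Rik genes in general. At an unadjusted p under 0.05, edgeR placed 23 of the 43 genes higher, beside 17.2% of all genes tested, and 1 lower, Cfap46, beside 6.66%. Of the 133 other genes that passed, 65 had an unadjusted p under 0.05 in either direction. Neither DESeq2 nor limma called a gene of the group lower. The count of 9 rested on each PND 21 and PND 28 mouse, as it was 1 without PND 21 mouse 1, 0 without PND 21 mouse 2, 1 without PND 28 mouse 1 and 2 without PND 28 mouse 2. Over all genes, the number called higher went from 1242 to 442, 295, 459 and 560 in the same order. The count was 16 without either PND 14 mouse (1330 or 1331 over all genes). DESeq2 called 19 of the group and 1429 of all genes, and all 9 were among those 19.

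The largest rise was that of Ccdc175, at 72.9 and 54.1 CPM in PND 21 mice 1 and 2 and 177 and 173 CPM in PND 28 mice 1 and 2. Its log2 fold change was 1.70 (SE 0.28) with an adjusted p of 0.0051 in edgeR. Erich2 went from 52.3 and 67.4 CPM to 165 and 159 CPM, with a log2 fold change of 1.64 (SE 0.35) and an adjusted p of 0.0144. 1700074P13Rik went from 119.7 and 133 CPM to 326 and 306 CPM, with a log2 fold change of 1.53 (SE 0.34) and an adjusted p of 0.022. The mice of the 2 ages did not overlap in these 3 genes, nor in any of the 9.

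1700003E16Rik and 1700029F12Rik rose alike. 1700003E16Rik measured 77.6 and 65.0 CPM at PND 21 and 178 and 146 CPM at PND 28, a log2 fold change of 1.41 (SE 0.26, adjusted p = 0.0082). 1700029F12Rik measured 84.1 and 70.5 CPM and then 187 and 164 CPM, a log2 fold change of 1.41 (SE 0.28, adjusted p = 0.0133). Ms4a20 measured 101 and 116 CPM and then 244 and 198 CPM, a log2 fold change of 1.24 (SE 0.33, adjusted p = 0.0433). Ms4a20 was the called gene nearest to the threshold.

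Ppp1r14bl, named for its likeness to an inhibitor subunit of protein phosphatase 1, measured 195 and 192 CPM at PND 21 and 431 and 342 CPM at PND 28, a log2 fold change of 1.22 (SE 0.31, adjusted p = 0.0385). Ccdc192 measured 65.7 and 56.8 CPM and then 125 and 105 CPM, a log2 fold change of 1.13 (SE 0.26, adjusted p = 0.027). 1700012B09Rik measured 104 and 64.6 CPM and then 177 and 129 CPM, a log2 fold change of 1.11 (SE 0.27, adjusted p = 0.0329). The PND 21 mice of 1700012B09Rik differed from each other by more than those of the other called genes, and its call was lost in 6 of the 10 fits that left out a mouse.

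Another 13 records had a fitted change of at least 2-fold but missed the adjusted p. Ssmem1, a serine-rich single-pass membrane protein, was nearest, at 161 and 181 CPM in the PND 21 mice and 445 and 349 CPM in the PND 28 mice. Its log2 fold change was 1.43 (SE 0.41) with an adjusted p of 0.0555. The most abundant gene, Clec2m, had a log2 fold change of 1.25 (SE 0.43, adjusted p = 0.102), Cfap206 one of 1.21 (SE 0.38, adjusted p = 0.0819) and Catsperz one of 1.19 (SE 0.38, adjusted p = 0.0836). The others are Stpg4, 1700123L14Rik, both records of 4932414N04Rik, Smco2 (1700023A16Rik), Pifo, 1700019A02Rik, Ube2d2b and Fam227b, with adjusted p-values between 0.0624 and 0.160. In all 13 records both PND 28 mice had more CPM than both PND 21 mice.

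A further 14 genes had a log2 fold change between 0 and 1 without a call. These were 4930544G11Rik, 1700028J19Rik, Tmbim7, 1700010B08Rik, 1700020N01Rik, Smim24, A26c3, Mroh4, Spef1l (6430531B16Rik), 4933414I15Rik, Mgat4d, Lrrc71 (4933430H15Rik), Meikin and Spdye4b. 4930544G11Rik had the largest value of these, at 0.95 (SE 0.37, adjusted p = 0.151), and went from 221 and 198 CPM to 351 and 339.9 CPM. The values closest to 0 were those of Spdye4b at 0.09 (SE 0.51), Meikin at 0.10 (SE 0.38) and 1700102P08Rik at -0.16 (SE 0.42). Meikin stayed between 14.8 and 31.8 CPM in all 8 mice from PND 14 on, and its PND 28 mice had 29.1 and 24.1 CPM. Spdye4b and Meikin had log2 fold changes of -0.15 and -0.11 when the libraries were scaled by their totals alone.

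The remaining 7 genes had a negative log2 fold change, and none passed the test. They were 1700102P08Rik, 1700006A11Rik, 4933440M02Rik, Cfap54, Nt5el, C030017K20Rik and Cfap46. Cfap46 had the lowest value, -0.96 (SE 0.37) with an adjusted p of 0.156 in edgeR, and went from 65.0 and 30.7 CPM to 23.2 and 17.9 CPM. Cfap54 went from 192 and 88.8 CPM to 75.2 and 99.8 CPM, with a log2 fold change of -0.43 (SE 0.29). The mice overlapped in Cfap54 and not in Cfap46. Cfap54, Nt5el and C030017K20Rik, with the large difference between the PND 21 mice given above, had positive values of 0.11, 0.14 and 0.17 in the highest of the fits that left out a mouse.

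**Figure D5:**
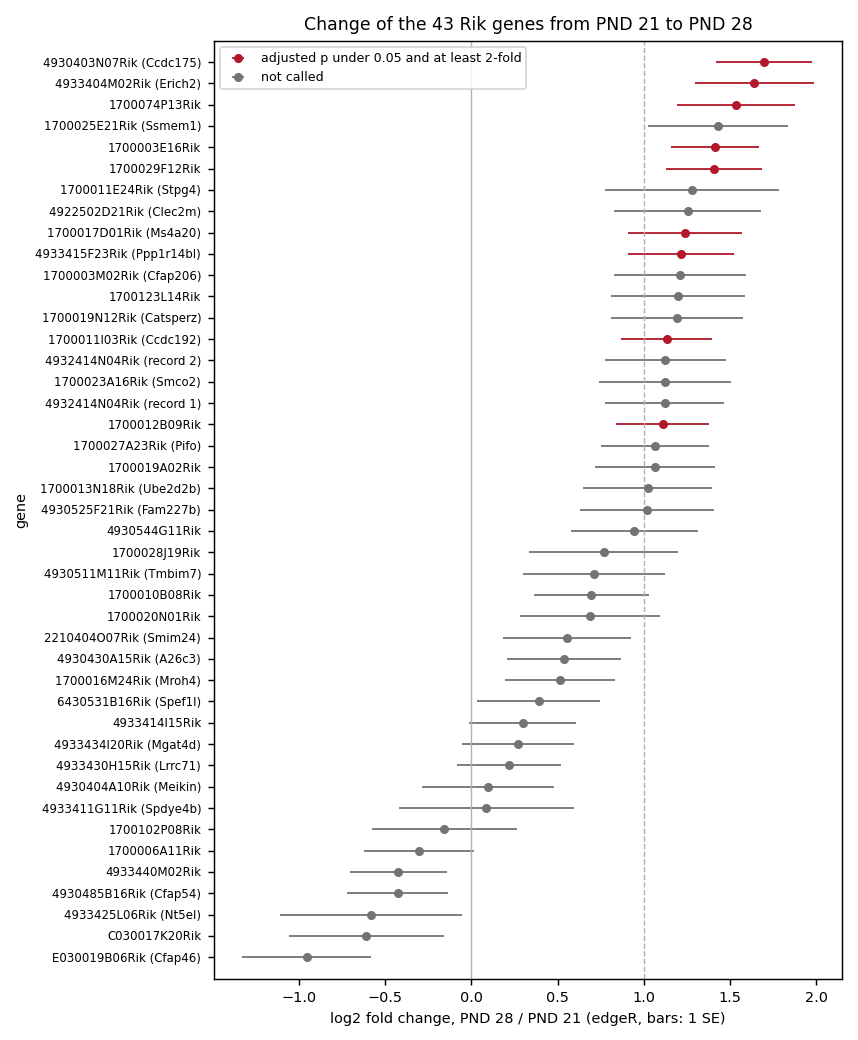
Log2 fold change between PND 28 and PND 21 from edgeR (horizontal axis, bars 1 SE) for the 43 Rik genes in order, with the 9 called genes in red and lines at 0 and at a 2-fold change. The values run from -0.96 in Cfap46 to 1.70 in Ccdc175, and 36 of the 43 lie above 0.

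On the CPM scale both PND 28 mice lay above both PND 21 mice in 29 of the 43 genes. This was so in 90 of the 133 other genes that passed and in 25.6% of all genes tested. Of the 43 genes, the PND 28 mice lay below in 4, namely 1700102P08Rik, 1700006A11Rik, 4933440M02Rik and Cfap46, and overlapped in 10. They lay below in 13 of the 133 other genes that passed and in 33.8% of all genes tested. Scaling by library totals alone moved the median log2 fold change of all genes by -0.22 from the TMM scaling used above. It left 33 of the 43 values above 0 instead of 36, and 5 genes called, all among the 9.

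Averaged over the 2 mice, the highest of the 5 ages was PND 28 in 33 genes and PND 21 in 10, and in none was it an earlier age. The same holds for 81.2% and 15.8% of the 133 other genes that passed. By RPKM over PND 14 and 17, the leading genes with the highest mean at PND 28 were Clec2m, Smim24 and Catsperz. Those with the highest mean at PND 21 were 1700102P08Rik, 1700006A11Rik and 4933440M02Rik, followed by Meikin, Cfap46, Spdye4b, Lrrc71, Nt5el, C030017K20Rik and Cfap54. The ratio of the PND 28 mean to the PND 14 mean had a median of 6.33 and ran from 1.04 in Nt5el to 18.0 in 1700123L14Rik. 1700123L14Rik, a single-exon gene, went from 38.5 and 55.1 CPM at PND 14 to 955 and 725 CPM at PND 28. Genes that were all on by PND 14 thus differed widely in their later course.

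Genes that regulate the meiotic and spermatid programmes are given beside the group. Of 16 such genes tested between PND 21 and PND 28, edgeR called 5 higher and 0 lower, beside 7.37% and 0.297% of all genes tested. The log2 fold change was positive in 13 of the 16, with a median of 0.39. Those called higher were Rfx3 at 1.34, Crem at 1.35, Foxj1 at 1.89, Hsf2 at 1.11 and Fhl5 at 4.57 on the log2 scale. Crem encodes a transcription factor of round spermatids and Fhl5 its coactivator. Mybl1 had 47.4 and 45.5 CPM in the PND 7 mice and between 176 and 267 CPM in every mouse from PND 14 on. Rfx4 was listed at 0 in both PND 7 mice and had between 19.4 and 37.8 CPM in the PND 14 and 17 mice, and Rfx2 went from 5.18 and 0.853 CPM at PND 7 to 43.2 and 35.6 CPM at PND 14. Of 39 genes of the cilium and axoneme list tested, 5 were called higher and 0 lower between PND 21 and PND 28. The called genes were Ropn1, Tekt2, Tekt4, Tekt5 and Ak8. The log2 fold change was positive in 33 of the 39, with a median of 0.77. Of the 19 spermatid markers 17 were called higher and 0 lower, with a median of 3.86. The median of the 17 spermatocyte markers was 0.05, and 1 of them was called higher, the kinase gene Pgk2. The 7 Leydig cell markers had a median of 1.27. Of these, 3 were called higher, Cyp11a1, Cyp17a1 and Insl3, which act in androgen synthesis or as a hormone of these cells. The 7 markers summed to 183 and 424 CPM in the PND 21 mice and to 997 and 755 CPM in the PND 28 mice. None of the 10 Sertoli cell markers was called, and their median was -0.58, with 0 of 10 above 0. The median of 1.02 of the 43 Rik genes lay between those of the spermatocyte and the spermatid markers. It lay above the 0.77 of the cilium list and below the 1.27 of the Leydig cell markers. The part of any of these cell types in it was not tested.

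Counts of 8 genes are uncertain because their exons overlap those of another gene, and whether strand was used in counting was not given in the sources used here. The 2 records of 4932414N04Rik share 3490 bases, which are 80.7% and 99.2% of their exon bases, and at PND 28 they measured 137 and 159 CPM and 133 and 156 CPM in mice 1 and 2, so they amount to a single measurement. Spef1l shares 51.4% of its exon bases with Gm16201 on the opposite strand, a long non-coding RNA with a mean of 2.98 CPM over the 10 mice. Lrrc71, a leucine-rich repeat protein, shares 21.8% with Arhgef11 on the opposite strand, which had a mean of 50.9 CPM, and 7.05% with Pear1 on its own strand. Fam227b shares 11.2% with Galk2 and the called gene Ccdc175 shares 4.90% with Jkamp, both on the opposite strand. 4933414I15Rik shares 16.9% with a pseudogene record of the same symbol, and Erich2 shares 2.88% with the antisense transcript Gm16292. Exons of the other 35 genes overlapped no other gene.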

How the data were processed

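Whole testis RNA of 10 mice, 2 at each of 5 ages, was measured. The authors used LifeScope v2.1 to align color-space reads to mm9, filtered out ribosomal, transfer RNA and repeat reads and any with over 10 possible alignments, and counted uniquely placed reads per gene of Ensembl. They deposited this count and an RPKM, in which the count is divided by exon length and by the reads counted. The deposited number of exons with more than 10 reads was read but no result rests on it. Counts and RPKM of the 2 barcodes of each PND 7 mouse were summed and averaged, respectively. Gene types and coordinates came from GENCODE M1 (mm9), in which 37310 of the 37675 genes listed were found with the same coordinates and the other 365 had 0 counts. Newer symbols and promoters came from RefSeq (GRCm38.p6).

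The genes, lists and tests were chosen with earlier results of these data known. Levels are CPM on the summed count. Fold changes and p-values came from the quasi-likelihood test of edgeR 4.0.16 (R 4.3.3) on all 10 mice, after filterByExpr (16860 genes kept) and TMM scaling (the common dispersion was 0.0726), Benjamini-Hochberg adjusted over all genes tested. This test gives no SE, so each SE is the absolute log2 fold change divided by the square root of the F statistic. DESeq2 1.42.0 and limma 3.58.1 on log2(RPKM + 1) were alternatives, the latter at the thresholds in the study's methods (p of at most 0.01, 2-fold and 10 RPKM between means). The script was tested on simulated data. Every gene of the group was named, with values per mouse for the 6 highest by RPKM and full statistics for up to 10 genes called in each direction. Motifs were fixed strings searched in 300 bases around each annotated start. Python 3.11.15 with pandas 2.3.3 and matplotlib 3.10.9 served for tables and plots. The total count per mouse lay between 3994026 and 13559548, and 3 counts were worth between 0.221 and 0.751 CPM. With 2 mice per age, no exact permutation test per gene could reach 0.05, and p-values rest on the spread shared across genes. Protein sequences were not analysed here.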

Additional observations from a re-analysis of the deposited data

How the results depend on the processing

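Changing the selection changed the number of genes. It was 15 with under 0.5 CPM at PND 7 and at least 20 CPM at PND 14 and 17, 75 with under 2 and at least 5 CPM, and 25 with the thresholds applied to RPKM. With CPM on TMM scaled library sizes it was 38, of which 37 are among the 43. Leaving out a mouse gave between 43 and 56 genes.

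The number of genes called higher at PND 28 than at PND 21, 9 in edgeR with TMM, was 19 with DESeq2, 5 with library totals, 20 with no filter on low counts, 17 with only the 4 mice of these ages, and 5 and 3 with limma on RPKM at pseudocounts of 1 and 0.1. Over all genes the number called higher, 1242 in edgeR with TMM, was 1429 with DESeq2, 822 with library totals, 1681 with no filter, 1715 with only the 4 mice, and 821 and 512 with limma. For the Rik genes it was 11 with RLE scaling and 13 with the PND 7 barcodes kept apart, beside 1386 and 1398 over all genes. Leaving out a mouse gave between 0 and 16. No gene was called lower in edgeR with TMM, under any of these alternatives or without any 1 mouse. The median log2 fold change of 1.02 was 0.80 with library totals, 0.77 and 0.76 with limma, 0.90 with only the 4 mice, and between 0.75 and 1.02 without a mouse.

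Mouse number was tried as a replicate block, which gave 7 Rik genes called higher, beside 1090 over all genes. The mice of different ages are different animals that share only a number, and the deviations of mice with the same number correlated over genes with r = -0.067 between PND 21 and PND 28. Over all 10 pairs of ages r ran from -0.170 (PND 14 and 17) to 0.343 (PND 14 and 21).

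The 2 genes nearest to 0 turned negative under other settings. The log2 fold change of 4933411G11Rik (Spdye4b) was -0.15 with library totals, -0.12 with limma at either pseudocount and -0.034 with only the 4 mice, and that of 4930404A10Rik (Meikin) was -0.11, -0.11 and -0.018 in the same order. Without a mouse these genes ranged from -0.13 to 0.34 and from -0.12 to 0.37, and 1700102P08Rik from -0.34 to 0.070. The cause was not tested.

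At PND 7 depth limits the statement to levels above 0.180 CPM over both mice, and 2 mice per age leave single fold changes with standard errors between 0.26 and 0.53.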
